A study of Mus musculus with 8 samples.

Results

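The microRNA (miRNA) cluster that lies within the gene Clcn5 on the mouse X chromosome was examined in RNA bound by the RNA-induced silencing complex (RISC) in brain. Its members were chosen by name, as 9 mature miRNAs of the miR-188, miR-362, miR-500, miR-501, miR-532 and miR-660 hairpins, after the levels of mmu-miR-501-5p in these same libraries were known. Of the 9 names, 8 had reads (129 of 47204 distinct read sequences), and mmu-miR-660-5p was not analysed here. All 8 were among the 463 miRNAs whose level averaged 10 CPM or more (CPM, reads of a miRNA per 1000000 reads of its library), out of 895 miRNA names in all. The levels and the genotype differences of the members are therefore given as a description, with no p-value.

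The libraries came from cortex and hippocampus combined of female mice of a mixed C57BL/6J/SJL background, 6 or 8 months old, that all carried the 5XFAD transgene, under which amyloid plaques form as in Alzheimer's disease. In 4 mice 1 copy of the autophagy gene Rubicon was intact (5XFADtg Rubicon+/-, het), and in 4 mice neither was (5XFADtg Rubicon-/-, ko). The mice of this comparison are called 6 months old in one description and 6 or 8 months old in another, and the age of each single mouse is not given. Neither wild-type Rubicon nor mice without the transgene enter the comparison. Argonaute complexes were pulled down with a GW182 peptide and their small RNAs were sequenced, to ask how the content of the RISC differs between the genotypes. Small RNA reads hold no check of the Rubicon deletion, so the genotypes rest on the labels.

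miRNAs of a cluster are cut from one or more shared primary transcripts, first by Drosha in the nucleus and then by Dicer, which leaves a duplex of a 5p and a 3p arm. One arm is kept by Argonaute as the guide and its seed, at the 5′ end, selects target mRNAs. Clcn5 encodes an endosomal chloride/proton exchanger that is mutated in Dent disease of the kidney, and the human counterpart of the cluster is also found within CLCN5. In neurons miR-501-3p is known to act on the AMPA receptor subunit GluA1 at synapses, and miR-188-5p on neuropilin-2 and dendritic spines.

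The 5 hairpins with an entry in the annotation (GENCODE, GRCm38) lay on the minus strand of chromosome X over 10815 bp, inside Clcn5 (7153810 to 7319358), and none overlapped an exon. From the highest coordinate down, which is the direction of transcription, they were Mir532 (7248402 to 7248497), Mir188 (7247989 to 7248056), Mir362 (7241982 to 7242046), Mir501 (7241243 to 7241351) and Mir500 (7237683 to 7237774). Mir532 and Mir188 were 345 bp apart and Mir362 and Mir501 630 bp apart, while 5942 bp separated Mir188 from Mir362 and 3468 bp separated Mir501 from Mir500. No read sequence was annotated to a Clcn5 transcript. The mature sequences from RefSeq (GRCm38.p6) are shown with the seeds, bases 2 to 8, in capitals, because 2 groups of members have the same bases 2 to 7. miR-532-5p is named without a sequence.
mmu-miR-500-3p: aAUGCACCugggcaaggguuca
mmu-miR-501-3p: aAUGCACCcgggcaaggauuug
mmu-miR-362-3p: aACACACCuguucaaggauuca
mmu-miR-501-5p: aAUCCUUUgucccugggugaaa
mmu-miR-362-5p: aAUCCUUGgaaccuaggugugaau
mmu-miR-188-5p: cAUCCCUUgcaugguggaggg
mmu-miR-532-3p: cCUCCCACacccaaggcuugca

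miR-500-3p and miR-501-3p had the same seed and were identical at 18 of 22 bases. Counted from the 5′ end of miR-500-3p, they differed by U9C, G18A, C21U and A22G. miR-362-3p was identical to miR-500-3p at 17 of 22 bases, but U3C and G4A gave it another seed. The 5p arms miR-362-5p and miR-501-5p had the same bases 2 to 7 and differed first at base 8 (G8U). Because the arms are so alike, reads could in principle be given to the wrong hairpin. However, 0 of 147 read sequences of the members and their other arms were an exact stretch of another hairpin of the cluster. Read sequences with bases that do not match their own hairpin could hardly be an exact stretch of another. For those, the count cannot decide. The hairpin of miR-501, whose 5p arm was the reason for the choice of the cluster, is shown with both RefSeq arms in capitals (109 bases, minus strand, GRCm38.p6).
Mir501: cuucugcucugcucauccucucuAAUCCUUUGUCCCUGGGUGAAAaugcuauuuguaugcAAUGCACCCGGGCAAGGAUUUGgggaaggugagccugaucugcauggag

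The libraries held 509839 to 2634450 reads in het and 1010177 to 19878054 reads in ko. Both libraries with over 5000000 reads (ko replicates 1 and 2) were ko, so in them depth and genotype cannot be told apart. One read was worth between 0.0502 CPM, in ko replicate 2, and 1.93 CPM, in het replicate 1. Marker miRNAs of neurons summed to between 170074 and 274723 CPM, and the summed levels of the 6 marker lists (neurons, oligodendrocytes, red blood cells, choroid plexus, white blood cells with microglia, and tissues outside the brain) overlapped between the genotypes in every list. In bulk tissue, fewer cells of a type and less RNA per cell cannot be told apart.

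To see how much of the RISC the cluster takes up, the levels of the 8 members were summed. Together they made up 0.0869% of reads. The sum was 765, 839, 991 and 1007 CPM in het replicates 1 to 4 and 727, 782, 984 and 855 CPM in ko replicates 1 to 4. The lowest and the next-lowest values were ko replicate 1 and het replicate 1, and the genotypes overlapped over most of their range. The mean of the het libraries was 901 ± 118 CPM and that of the ko libraries 837 ± 111 CPM (SD, n = 4 each), a difference of -0.10 in log2(CPM + 1). The difference turned to 0.12 when each library was centred on its median miRNA, since the median of the ko libraries lay 0.22 lower on the log2 scale. It was 0.04 without ko replicates 1 and 2, the libraries over 5000000 reads.

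Single members covered a 13.5-fold range of mean level. miR-532-5p was highest with 303 ± 42.9 CPM (SD, n = 8), followed by miR-362-3p (181 ± 105), miR-500-3p (151 ± 29.6), miR-532-3p (89.3 ± 27.3), miR-188-5p (55.6 ± 12.7), miR-501-3p (37.8 ± 17.6), miR-501-5p (28.3 ± 11.1) and miR-362-5p (22.4 ± 9.54). Every pair of neighbours in this order had overlapping ranges. Within libraries, miR-532-5p was above miR-362-3p in 6 of 8, with het replicate 3 and ko replicate 4 the other way round. miR-500-3p was above miR-532-3p and miR-532-3p above miR-188-5p in 8 of 8. miR-188-5p was above miR-501-3p in 7 of 8. miR-362-3p was above miR-500-3p in 4 of 8, so this pair had no order. miR-501-3p was above miR-501-5p, and miR-501-5p above miR-362-5p, in 5 of 8 each. Among the 463 miRNAs the members ranked from 193 to 408, so all were guides of middle or low abundance.

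**Figure D1:**
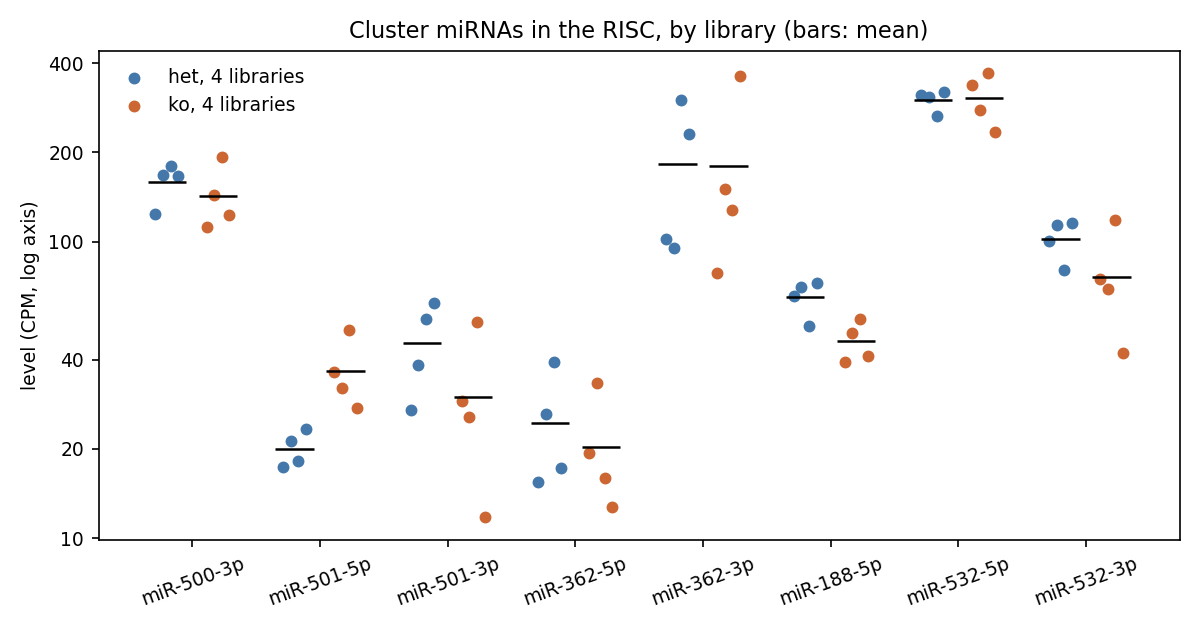
Level of each cluster miRNA (CPM, log axis) in 4 het and 4 ko libraries, 1 point per library and a bar at the mean, ordered by position on the chromosome. For miR-501-5p the 4 ko points (27.4 to 50.3 CPM) lie above the 4 het points (17.4 to 23.3 CPM), and for the 7 other miRNAs the genotypes overlap.

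The guides with the highest level of each hairpin were steady or not to very different degrees. miR-532-5p was measured at 313, 307, 266 and 319 CPM in het and 338, 279, 370.8 and 234 CPM in ko. Its coefficient of variation of 14.1% over the 8 libraries was at the 2.59 percentile of the 463 miRNAs, and its genotype difference was 0.00 (SE 0.24, log2), or 0.22 after centring. miR-500-3p was at 124, 168, 180.2 and 166 CPM in het and 112, 143, 192 and 123 CPM in ko, with a coefficient of variation of 19.6% and a difference of -0.17 (SE 0.29). That difference was 0.05 after centring, and it lay between -0.33 without ko replicate 3 and -0.07 without ko replicate 1. The ko libraries reached both higher and lower than the het libraries in each of these miRNAs.

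miR-362-3p, by contrast, split the libraries of each genotype. It was at 102, 94.9, 301 and 231 CPM in het and at 78.2, 150.3, 128 and 363 CPM in ko. The 3 high libraries were het replicates 3 and 4 and ko replicate 4, and the range was 4.63-fold. The 95% Poisson interval, for counting error alone, was 79.7 to 112 CPM in het replicate 2 and 280.1 to 323 CPM in het replicate 3. The genotype difference was -0.08 (SE 0.49) and had no stable sign, from -0.49 without ko replicate 4 to 0.24 without ko replicate 1, with 0.15 after centring and 0.41 without both libraries over 5000000 reads. The other arm, miR-362-5p, was at 15.4, 26.1, 39.2 and 17.3 CPM in het and 19.3, 33.4, 15.9 and 12.7 CPM in ko, and it was lowest in ko replicate 4, where miR-362-3p was highest. Its difference was -0.25 (SE 0.44), -0.03 after centring and -0.00382 without het replicate 3. The marker miRNAs of neurons were also highest in ko replicate 4 (274723 CPM) and next in a ko library with the lowest miR-362-3p (ko replicate 1, 220138 CPM), and their part in the spread of miR-362-3p was not tested.

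miR-188-5p and miR-532-3p, from the hairpins 345 bp apart, had lower means in ko with overlapping libraries. miR-188-5p was at 65.6, 70.2, 52.0 and 72.5 CPM in het and 39.3, 49.2, 55.0 and 41.2 CPM in ko. A single pair of libraries made the overlap, het replicate 3 with 52.0 CPM and ko replicate 3 with 55.0 CPM. The difference was -0.49 (SE 0.30), and -0.27 after centring. miR-532-3p was at 100.4, 113, 80.0 and 116 CPM in het and 74.7, 69.4, 119 and 42.1 CPM in ko, and here ko replicate 3 was the highest of all 8 libraries. Its difference was -0.50 (SE 0.35), -0.28 after centring and -0.25 without ko replicate 4. miR-188-3p, which is not a member but comes from the same hairpin as miR-188-5p, was at 23.9 ± 8.86 CPM (n = 8) and also overlapped, with a difference of -0.53 (SE 0.40).

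The means of the arms of miR-501 differed in opposite directions, with overlapping libraries for the 3p arm. miR-501-5p was at 17.4, 21.3, 18.3 and 23.3 CPM in het (9, 31, 47 and 62 reads) and 36.4, 32.0, 50.3 and 27.4 CPM in ko (286, 637, 117 and 28 reads). All 4 ko libraries were above all 4 het libraries. This held for 1 of the 463 miRNAs (0.216%), and miR-501-5p, which was singled out on this contrast, was that miRNA. The het mean was 20.1 ± 2.73 CPM and the ko mean 36.5 ± 9.87 CPM, a difference of 0.81 (SE 0.35), or 1.03 after centring. The gap between the highest het and the lowest ko library was within counting error, with 95% Poisson intervals of 17.8 to 29.8 CPM and 18.2 to 39.6 CPM. miR-501-3p was at 27.0, 38.5, 54.7 and 62.3 CPM in het and 29.0, 25.6, 53.7 and 11.8 CPM in ko. It was lowest in ko replicate 4, with 12 reads, and the difference was -0.70 (SE 0.46) with ko replicates 1 and 3 inside the het range. Without ko replicate 4 the difference of miR-501-3p was -0.34. Of the marker lists, the one for red blood cells (miR-451a, miR-144-3p and miR-486a-5p, all found, the last under a joint name with miR-486b-5p) was lower in 3 of 4 ko libraries than in any het library, with sums of 1902 to 3384 CPM in het and 908 to 2367 CPM in ko. miR-486a-5p alone was at 141 to 259 CPM in het and 147 to 295 CPM in ko. The sum rests mainly on the other markers. The list for tissues outside the brain was likewise lower in 3 of 4 ko libraries than in any het library. Its sums were 324 to 379 CPM in het and 228 to 461 CPM in ko, with the highest value in ko replicate 2. The part of these lists in the levels of miR-501 was not tested.

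In the fit over all miRNAs, 6 of 463 passed limma at an adjusted p of 0.05 (1.3%), each with the lower level in ko, and 34 of the 463 were past 0.05 without adjustment. None of the 6 was a member. Because the members were chosen on this contrast, nothing is read from their count. The median difference of the members was -0.21, with 2 higher and 6 lower in ko, against -0.09 over all 463, with 188 higher and 275 lower. After centring on the library medians the members' median was 0.01, with 4 higher and 4 lower, against 0.13 over all 463, with 293 higher and 170 lower, so the split of directions depended on the scaling. No member had all ko libraries below all het libraries, which 15 of the 463 had (3.24%).

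**Figure D2:**
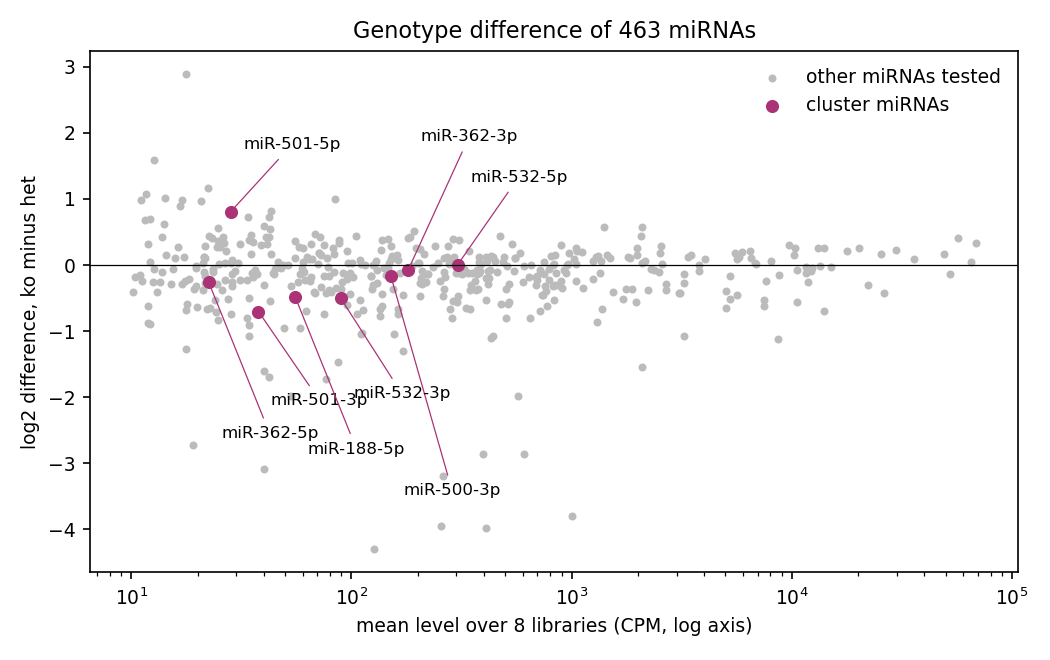
Difference between the genotypes (mean log2(CPM + 1) of 4 ko minus 4 het libraries) against mean level over 8 libraries (CPM, log axis) for 463 miRNAs, with the 8 cluster miRNAs named. miR-501-5p (0.81) and miR-501-3p (-0.70) lie farthest from 0 among the cluster, and miR-532-5p sits at 0.00.

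To compare the arms within a hairpin, a measure that does not depend on the total of a library, the 5p share was computed as CPM of the 5p arm over that of both arms. For miR-501 it was 39.1%, 35.6%, 25.0% and 27.2% in het and 55.6%, 55.6%, 48.3% and 69.999% in ko. In every het library the 3p arm was the more abundant, whereas in 3 of 4 ko libraries it was the 5p arm. The means were 31.7% ± 6.73 and 57.4% ± 9.07 (SD, n = 4 each), a difference of 25.7 percentage points. These shares rest on 23, 87, 188 and 228 reads in het and 514, 1146, 242 and 40 reads in ko, and the exact 95% binomial interval was 19.7% to 61.5% in het replicate 1 and 53.5% to 83.4% in ko replicate 4. Among 138 hairpins whose 5p and 3p arms, under matching names, each averaged 10 CPM or more, the difference of miR-501 was the largest in size. All 4 ko shares were above all 4 het shares in 3 of the 138 (2.17%), miR-501 among them. The share is built from the level of miR-501-5p, for which the miRNA was chosen, and is not independent evidence.

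miR-532 leaned to the 5p arm in all libraries. Its share was 75.7%, 73.0%, 76.9% and 73.3% in het and 81.9%, 80.1%, 75.8% and 84.8% in ko. The means were 74.7% ± 1.87 and 80.6% ± 3.76, and only ko replicate 3 fell within the het range. The 5p share of miR-362 was 13.3% ± 6.11 in het and 13.1% ± 7.51 in ko, from 3.39% in ko replicate 4 to 21.6% in het replicate 2. For the 2 hairpins with a single arm among the members, the 5p share was 69.9% ± 6.76 and 70.7% ± 8.36 for miR-188 and 3.66% ± 1.50 and 4.37% ± 2.07 for miR-500. Thus the dominant arm was 3p for miR-500 and miR-362, 5p for miR-188 and miR-532, and neither throughout for miR-501.

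**Figure D3:**
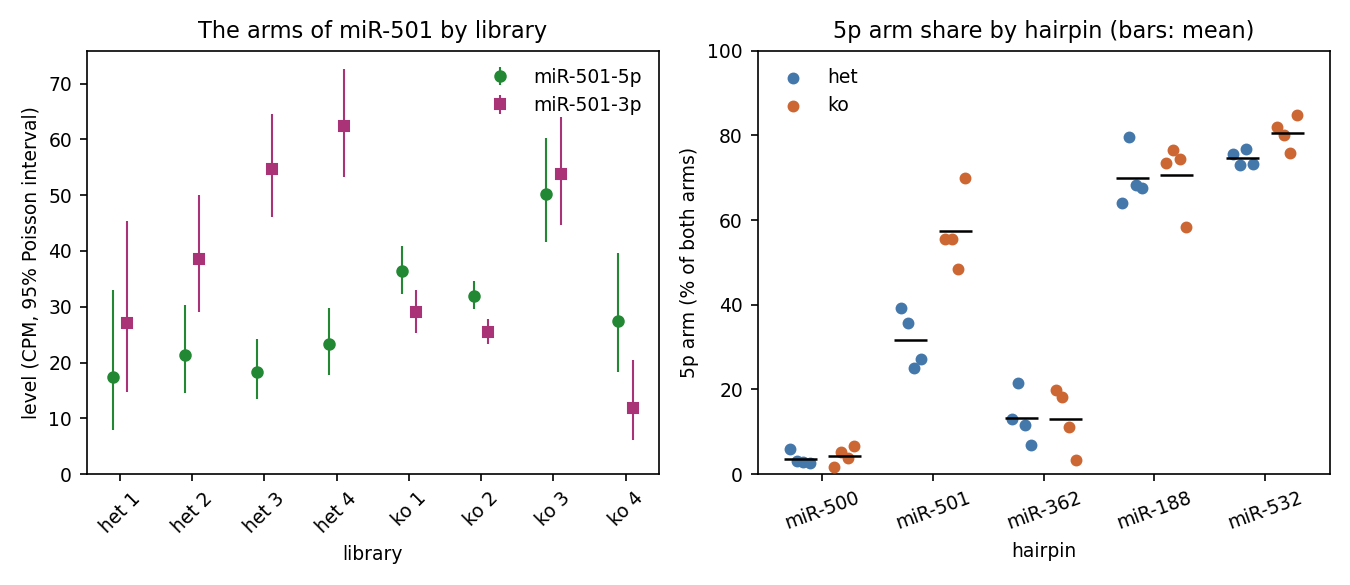
Left, CPM of both arms of miR-501 in each library with 95% Poisson intervals, which cover counting error only. Right, share of the 5p arm (% of both arms) for 5 hairpins in 4 het and 4 ko libraries, with a bar at the mean; the miR-501 shares are 25.0% to 39.1% in het and 48.3% to 69.999% in ko, and the other hairpins overlap.

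Since the hairpins share a host gene, it was asked whether their guides rise and fall together over the 8 libraries. The Pearson correlation of log2(CPM + 1) had a median of 0.15 over 28 pairs and ranged from -0.72 (miR-362-3p with miR-532-5p, Spearman rho -0.64) to 0.83 (miR-501-3p with miR-532-3p, rho 0.76), with 8 pairs above 0.5 and 10 below 0. After the mean of each genotype was removed the median was 0.34, with 12 pairs above 0.5 and 9 below 0. These are descriptions over n = 8 libraries that share one scaling to a fixed total, and no test was made. Leaving out the 2 libraries farthest from the median of the first miRNA changed them to -0.18 and 0.45, so both rested largely on those libraries. The arms of miR-532 had r = 0.79 (rho 0.69), 0.37 without 2 libraries and 0.94 after the genotype means were removed. miR-500-3p and miR-501-3p, which have the same seed, had r = 0.77 (rho 0.67), and 0.83 without 2 libraries. The arms of miR-501 had r = -0.02 (rho -0.12) over all libraries and 0.10 without 2 libraries, but 0.87 after the mean of each genotype was removed. The value of 0.87 was not computed with libraries left out. For miR-501-3p, ko replicate 4 stood farthest from the mean and held 12 reads. The arms of miR-362 had r = 0.02 (rho -0.10), and 0.01 after the means were removed. ko replicate 4 stood at the edge for most members, as it was the lowest of 8 for miR-501-3p, miR-362-5p, miR-532-5p and miR-532-3p and the highest for miR-362-3p.

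**Figure D4:**
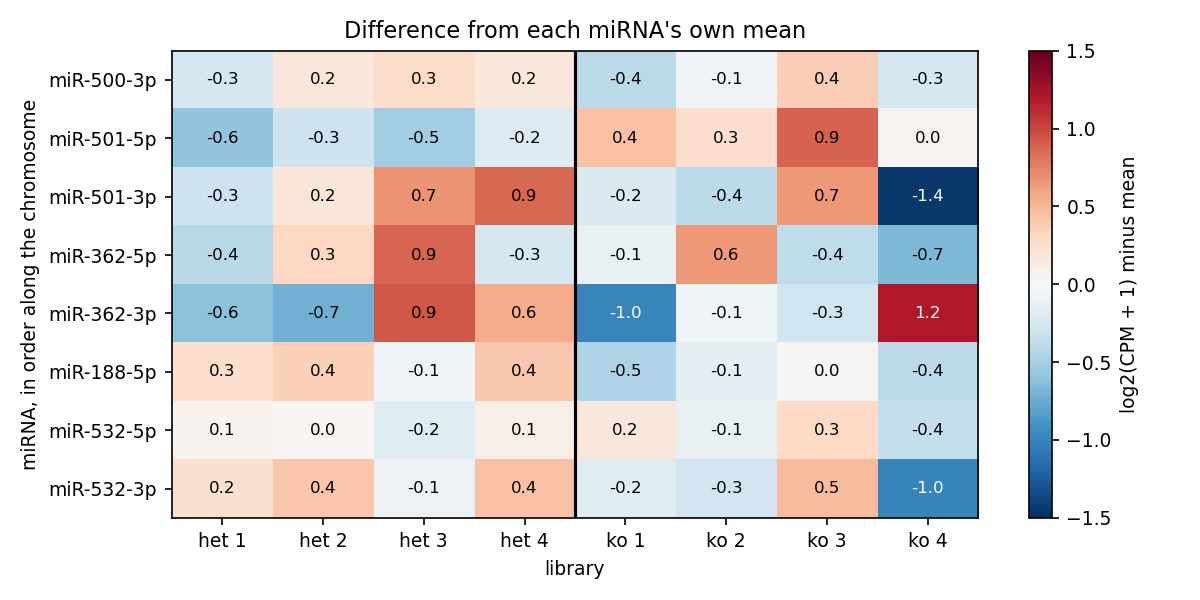
Difference of each cluster miRNA from its own mean over 8 libraries (log2(CPM + 1), coloured and printed), with het libraries left and ko libraries right of the line. Hairpins are in order of coordinate, with the 5p arm before the 3p arm. The miR-501-5p row is negative in 4 het and positive in 4 ko libraries, while in ko replicate 4 miR-501-3p stands at -1.4 and miR-362-3p at 1.2.

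The 3 miRNAs outside the cluster whose levels were most like the summed level of the members, among 454 candidates, were miR-129-2-3p (r = 0.86, rho 0.88, 4045 CPM), miR-3102-5p.2-5p (r = 0.86, rho 0.79, 35.3 CPM) and miR-652-3p (r = 0.85, rho 0.81, 1770.3 CPM), each over n = 8 libraries. Without the 2 libraries farthest from the median sum, r was 0.85, 0.99 and 0.83. They were picked as the highest of many and are given as a measure of likeness alone.

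The reads of the members were then examined for their ends, which the choice of members did not use. Most reads began at the 5′ base of the main form. Reads with another 6mer seed (bases 2 to 7), that is 5′ isomiRs, made up 1.57% ± 1.66 of miR-362-3p (SD, n = 8), 0.951% ± 0.709 of miR-532-5p, 0.974% ± 0.913 of miR-500-3p and 0.951% ± 1.70 of miR-532-3p. For miR-188-5p, miR-362-5p, miR-501-3p and miR-501-5p no such read was listed, in a table that holds no sequence with few reads over all libraries. The 3′ ends varied more than the 5′ ends, to a degree that differed between members. The most abundant reads are shown as deposited, with the seed (bases 2 to 8) in capitals, for members whose main read was not the RefSeq form.
miR-501-5p: aATCCTTTgtccctgggtga
miR-501-3p: aATGCACCcgggcaaggatttgg
miR-362-5p: aATCCTTGgaacctaggtgtga
miR-188-5p: cATCCCTTgcatggtggagggt

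The main read of miR-501-5p had 20 nt, 2 fewer than the RefSeq form, and made up 49.1% ± 16.2 of its reads. The main read of miR-501-3p had 23 nt, 1 more than RefSeq, and made up 31.8% ± 7.77, followed by the RefSeq form with 29.2% ± 18.4. The main read of miR-362-5p was 2 nt shorter than RefSeq and made up 64.0% ± 5.64, and that of miR-188-5p was 1 nt longer and made up 31.1% ± 6.83. miR-532-5p was the most uniform, with 83.4% ± 4.03 in one read of 22 nt. In miR-500-3p, miR-532-3p and miR-362-3p the RefSeq form led with 34.3% ± 4.37, 40.9% ± 5.40 and 49.2% ± 12.3, and a read 1 nt shorter came next with 29.9% ± 6.58, 38.3% ± 8.24 and 22.8% ± 8.71.

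Bases at the 3′ end that do not match the hairpin set the members apart as well. Such reads can arise when nucleotides are added to the finished miRNA. Of miR-188-5p reads, 39.1% ± 9.14 were no exact stretch of the hairpin, with 13.1% ± 5.96 ending in added A, 7.62% ± 7.11 in added U and 18.3% ± 7.55 in another unmatched end. miR-500-3p and miR-501-3p, alike in sequence, ended in added U in 15.9% ± 5.89 and 16.5% ± 10.6 of reads. In contrast, 96.3% ± 3.75 of miR-501-5p and 97.5% ± 6.07 of miR-362-5p reads matched their hairpin throughout. miR-532-3p, miR-532-5p and miR-362-3p lay between, with 89.6% ± 3.69, 93.9% ± 2.69 and 93.3% ± 3.46.

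**Figure D5:**
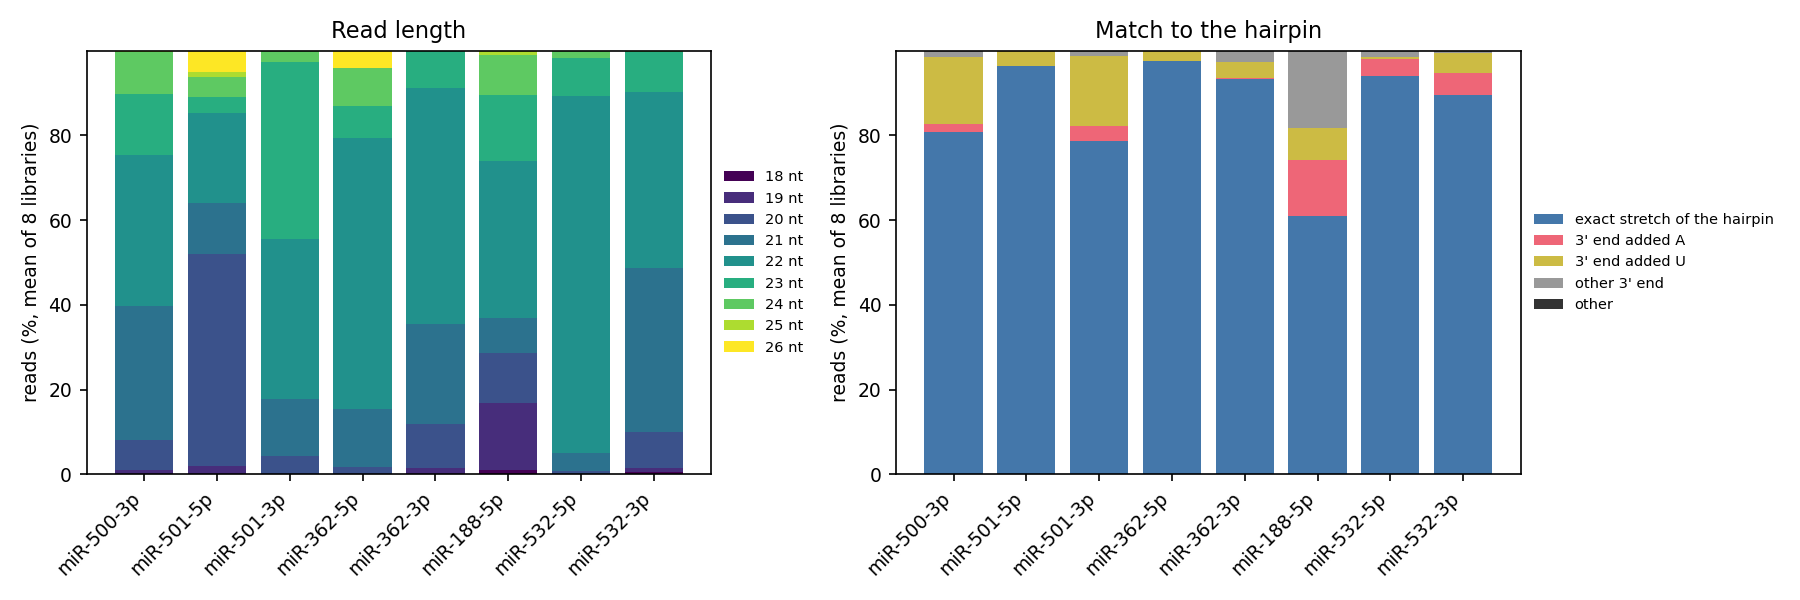
Read lengths (left) and match to the hairpin (right) of each cluster miRNA, as percent of its reads and mean of 8 libraries. The 20 nt reads make up 49.9% of miR-501-5p, the 22 nt reads 84.2% of miR-532-5p, and reads with an unmatched 3′ end are most frequent in miR-188-5p.

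To ask whether the reads differed in shape between the genotypes, the 5′ isomiR share, the mean read length and the share of reads that were no exact stretch of the hairpin were compared for the 5 members with at least 20 reads in every library (miR-188-5p, miR-362-3p, miR-500-3p, miR-532-3p and miR-532-5p). None of the 15 exact two-sided permutation tests had an unadjusted p under 0.05, where 0.0286 is the smallest p that 4 against 4 libraries can give. With Benjamini-Hochberg adjustment over 15 tests a single test at that p would have an adjusted p of 0.429, and at least 9 tests would have to reach it for a call, so the adjusted outcome says little. The 5′ isomiR share of miR-188-5p was 0 in every library and could not differ. The smallest p was 0.143, for the mean length of miR-532-5p reads, with means of 22.04 ± 0.0527 nt (het) and 22.09 ± 0.0351 nt (ko) (exact permutation p = 0.143, adjusted p = 1.0). The share of miR-188-5p reads that did not match the hairpin was 40.5% ± 10.9 in het and 37.6% ± 8.43 in ko (exact permutation p = 0.686, adjusted p = 1.0). For miR-501-5p, miR-501-3p and miR-362-5p, with as few as 8 reads in a library, no test was made. The reads of miR-501-5p had a mean length of 21.3 ± 0.802 nt (het) and 21.1 ± 0.134 nt (ko), with the lowest (20.4 nt) and the highest value (22.1 nt) both in het.

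Finally, the seeds were compared with the rest of the RISC. The viability of a 6mer seed is the mean viability of 3 mouse cell lines after transfection of an siRNA with that seed, as deposited beside each read, and seeds of low viability are toxic by Death Induced by Survival gene Elimination (DISE). The members supplied nearly all reads of some seeds, 99.2% of AUGCAC (miR-500-3p and miR-501-3p, viability 57.3) and 99.0% of AUGCCU (miR-532-5p, viability 36.1). With miR-500-5p, an arm of 6.20 ± 2.25 CPM that is not a member, the cluster also supplied 89.1% of AUCCUU reads (miR-501-5p and miR-362-5p, viability 81.0). Other seeds were shared with more abundant miRNAs. miR-532-3p gave 3.39% of CUCCCA reads (viability 69.3), beside 2509 CPM of miR-150-5p, and miR-362-3p gave 30.2% of ACACAC reads (viability 54.2), beside 405 CPM of miR-329-3p. miR-188-5p gave 56.1% of AUCCCU reads, the seed with the lowest viability in the cluster (32.6), and reads of miR-125b-5p with that seed came to 32.6 CPM.

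The arms of miR-501 were also summed with the arms of the other hairpins that have the same 6mer seed. AUCCUU reads of the cluster were at 40.5, 53.0, 62.5 and 43.9 CPM in het and 57.1, 72.7, 73.9 and 49.0 CPM in ko. AUGCAC reads were at 151, 204, 231 and 229 CPM in het and 141, 168, 245 and 132 CPM in ko. The genotypes overlapped for both seeds, with means of 50.0 ± 9.86 and 63.2 ± 12.2 CPM for AUCCUU and 204 ± 37.4 and 171 ± 51.2 CPM for AUGCAC (SD, n = 4 each).

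The mean seed viability was 50.1 ± 0.993 for member reads and 56.4 ± 0.775 for all reads (SD, n = 8). It was 50.2 ± 1.22 in het and 50.0 ± 0.889 in ko for the members (n = 4 each), and the genotypes overlapped. The mean of the members includes miR-532-5p, the most abundant of them, with a seed viability of 36.1, and was not computed without it. Besides miR-532-5p, the main seeds of miR-188-5p (32.6) and miR-362-3p (54.2) lay below the mean of all reads. Those of the other members lay above it. Seeds with a viability under 40, a limit set here for description, made up 42.0% ± 7.06 of member reads and 12.7% ± 1.44 of all reads. That share rests on miR-532-5p, whose seed lies close under the limit. Without miR-532-5p it was 10.4% ± 2.50, and with a limit of 35 it was 6.93% ± 1.31 of member reads against 9.14% ± 1.09 of all reads. The share of member reads with a viability under 40 was lowest in het replicate 3 and ko replicate 4, both among the libraries with the most miR-362-3p.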

How the data were processed

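The deposited table was made by the authors with their SPOROS pipeline after adapter trimming (Trim Galore is named in the submitters' notes; versions and genome build are not given in the sources used here). It holds distinct reads with a miRNA name, a 6mer seed, CPM per library as scaled by the authors, and the authors' viability score of the seed. Rare reads had been removed on their total over libraries, which favours reads of deep libraries. Of the miRNA names, CPM was summed per name. The table also gives a piRNA name to 93.5% of the CPM of miR-532-5p and 99.5% of that of miR-532-3p, and these were kept as miRNAs. The members and gene lists were chosen with earlier results of these data known, and the named miRNAs were the members, their other arms, the 3 most alike in level and the leading miRNA with each shared seed. Cell type marker lists were described by their sums, and the red blood cell markers were also named, after their values were seen.

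Whole reads were recovered from the CPM steps (99.9961% to 100% of values within 0.0006 CPM). The mean level over mice was compared in limma 3.58.1 (trend and robust, R 4.3.3) on log2(CPM + 1), for miRNAs averaging 10 CPM or more, with Benjamini-Hochberg adjustment, and edgeR 4.0.16 and DESeq2 1.42.0 were run as alternatives on the recovered reads. Scripts were tested on simulated data. The labels give each library its own mouse. Poisson and binomial intervals are exact, at 95%, and cover counting error only, as the reads had no molecular identifiers. Python 3.11.15, pandas 2.3.3, numpy 2.4.6, scipy 1.17.1 and matplotlib 3.10.9 were used otherwise. Alternatives were other pseudocounts, filters and scalings, read subsets, the replicate number as a block, and leaving out libraries.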

Additional observations from a re-analysis of the deposited data

Results flagged for a closer look

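Of 60 groups of 4 libraries, 5 had a library whose gap to the next exceeded Dixon's 95% critical value, where chance gives about 3. The level of miR-500-5p was 2.04 CPM in ko replicate 1 against at least 7.73 CPM in the other ko libraries. The 5p share of miR-500 was 5.88% in het replicate 1, from 4 reads of the 5p arm, against at most 3.18% in the other het libraries. The mean length of miR-362-3p reads was 20.9 nt in het replicate 1 and at least 21.6 nt in the other het libraries. The 5′ isomiR share of miR-532-3p was 4.85% in het replicate 3 and 0 in the other het libraries. The mean length of miR-532-3p reads was 21.4 nt in het replicate 2 and at least 21.5 nt in the other het libraries. Outside the named miRNAs, 4 read sequences were exact stretches of the hairpins with no mature name. They had 34 reads in all (0.845 CPM on average) and exceeded the floor of 3 reads in 2 libraries.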

How the results depend on the processing

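The 6 calls among all miRNAs became 10 with the replicate number as a block, 9 in DESeq2, 4 in edgeR, 5 with a pseudocount of 0.1 CPM, 6 with one of 10 CPM, and 4 to 9 when 1 library was left out. Same-numbered libraries correlated at 0.04, 0.29, -0.18 and 0.25 in their deviations from the group means. The best het match had the same number for ko replicates 2 and 4 but not for ko replicates 1 and 3. These values do not settle whether the numbers pair the mice. Under the block the difference of the summed level was -0.10, which is the same by construction. That difference turned to 0.12 when libraries were centred on their median and to 0.04 without the libraries over 5000000 reads, and lay between -0.19 and -0.04 without single libraries. The difference of miR-501-5p ranged from 0.61 to 1.03 and that of the miR-501 arm share from 21.5 to 28.7 percentage points. As the libraries of these 2 measures did not overlap and miR-501-5p was chosen for it, leaving out libraries could not turn their sign, and this is no sign of stability. The differences of miR-188-5p (-0.59 to -0.27), miR-362-5p (-0.65 to -0.00382), miR-501-3p (-1.04 to -0.34) and miR-532-3p (-0.74 to -0.25) were negative in 16 alternatives each, though that of miR-362-5p nearly vanished without het replicate 3, while miR-362-3p changed sign in 8, miR-532-5p in 5 and miR-500-3p in 1. Read shape gave 0 calls after adjustment in every alternative, which the small number of splits made likely, and without the libraries over 5000000 reads no p under 0.0667 was possible. The smallest p, unadjusted, was 0.0286 when each distinct sequence was counted once (2 tests under 0.05, smallest adjusted p = 0.214, exact permutation) or without het replicate 1 (1 test, smallest adjusted p = 0.429). The mean length difference of miR-532-5p was 0.614 nt in place of 0.0530 when each sequence was counted once. Counted so, rare sequences weigh as much as common ones. As both libraries over 5000000 reads were ko, depth and genotype cannot be told apart in the values and tests that count each sequence once. Depth limits the arms of low level most, with 9 reads of miR-501-5p in het replicate 1 and 12 of miR-501-3p in ko replicate 4. The share of member reads with a seed viability under 40 (42.0%) was 6.93% under a limit of 35, 42.2% under 45 and 10.4% without miR-532-5p, alternatives chosen after seeing the data.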

Other observations

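A list of other miRNAs of chromosome X was described, 35 with a mean of at least 10 CPM outside the cluster. It was not complete, since for some of its hairpins the other arm also averaged 10 CPM or more but was not listed. The listed miRNAs had a median genotype difference of 0.01 on the log2 scale, with 18 higher and 17 lower in ko. None of the 35 passed limma, edgeR or DESeq2 after adjustment, and 1, 0 and 0 had an unadjusted p under 0.05. Among all 463 miRNAs 6 passed limma (1.3%). Of the 35, 0 had all ko libraries above all het libraries, as 0.216% of the 463 had, and 2 had all ko libraries below, as 3.24% of the 463 had.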
